A study of Arabidopsis thaliana with 4 samples.

Results

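The genes described here are 9 Arabidopsis thaliana genes that are switched on in darkness and by shortage of sugar: DIN6, DIN11, SEN1 (also called DIN1), DIN2, DIN3, DIN4, DIN10, BCAT2 and DRM2. They were taken by locus identifier (AT3G47340, AT3G49620, AT4G35770, AT3G60140, AT3G06850, AT3G13450, AT5G20250, AT1G10070 and AT2G33830, in that order), and 9 of 9 were among the 34133 loci of each table. DRM2 here is the dormancy-associated gene, not the DNA methyltransferase of the same name. The members were chosen by their known induction in darkness and with the deposited log2 ratios and q-values of these same comparisons in view, so their differences are a description and support nothing by themselves.

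The groups were dko rosette leaves and wild-type rosette leaves from plants of 4 weeks, and dko whole seedlings and wild-type whole seedlings of 2 weeks. The dko carries mutations in both AtTric1 (At3g49560) and AtTric2 (At5g24650), genes for mitochondrial membrane proteins linked to tRNA import, and wild type is the accession Col0. All 4 groups were sown on MS medium and grown at 22 °C with a 16 h photoperiod, and plants grown on to the rosette stage went into soil at day 5. Each group is stated to hold 3 replicates, but the authors' tables give 1 pooled FPKM per group (fragments scaled to transcript length and to the fragments of the library). No value below therefore has a standard deviation, the depth behind it is unknown, and the error of a comparison is carried by the authors' Cuffdiff q-value, for which 0.05 was the threshold. The high and low light named in the design text were not analysed here.

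As a check of the labels, TRIC1 stood at 10.7 FPKM in dko rosettes and 34.7 FPKM in wild-type rosettes, and at 16.2 FPKM in dko seedlings and 33.9 FPKM in wild-type seedlings, so transcript remained in the dko. It was lower in both tissues (log2 ratios -1.70 and -1.06, q = 0.000899 and 0.000768, authors' deposited tables). TRIC2 stood at 0.069 FPKM in dko rosettes and 17.5 FPKM in wild-type rosettes, and at 0.366 FPKM in dko seedlings and 17.7 FPKM in wild-type seedlings. Its q-value was 0.000768 in seedlings and 0.146 in rosettes in the authors' deposited tables, the second short of the threshold despite the low dko level.

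In plants, sugar from photosynthesis holds this class of genes down, and darkness or starvation releases them. A sensor kinase, SnRK1, and bZIP transcription factors of the C and S1 groups are known to take part in their induction. Their products include enzymes that store nitrogen as asparagine, release sugars from walls and galactosides, and break down branched-chain amino acids, whose oxidation feeds electrons to the mitochondrial respiratory chain.

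The 300 bases before the RefSeq start of each gene were read from the RefSeq TAIR10.1 genome, whose nuclear chromosomes have the lengths of TAIR10. They were searched on both strands for 5 motifs. RefSeq starts can differ from those of the authors' spans, and the bases between were not searched. For DRM2 they are 14310608 and 14310351, for DIN6 17441431 and 17441243, and for DIN11 both are 18393747. Distances of matches are counted from the RefSeq start. The G-box is CACGTG. The core bound by bZIP factors, which lies within the G-box, is ACGT. The proline-responsive element bound by S1 factors is ACTCAT. The sugar-related element is TATCCA, and the light-related element is GATAAG. The 4 windows printed belong to the genes with the G-box, DIN6 and DIN11, and to SEN1 and DRM2. These last fell past the q threshold in seedlings (log2 ratios -2.20 and -0.98), as did DIN10, whose window is not printed. Capitals mark every match, on the strand shown or on the other. They lie at chr3:17441432-17441731 (minus strand, DIN6), chr3:18393447-18393746 (plus, DIN11), chr4:16944678-16944877 (plus, SEN1, 200 bases, since a neighbouring gene takes up the remainder) and chr2:14310609-14310908 (minus, DRM2). The 136 bases of the DIN6 window nearest to its start also carry the annotated gene AT3G47341 on the other strand, which is listed at 0 FPKM in all 4 groups.
DIN6: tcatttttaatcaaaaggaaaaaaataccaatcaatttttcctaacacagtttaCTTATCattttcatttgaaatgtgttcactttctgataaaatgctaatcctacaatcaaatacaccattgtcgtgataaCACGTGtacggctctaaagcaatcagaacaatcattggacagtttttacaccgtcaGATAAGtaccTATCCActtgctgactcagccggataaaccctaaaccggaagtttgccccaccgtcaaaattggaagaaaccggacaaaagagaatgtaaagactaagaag
DIN11: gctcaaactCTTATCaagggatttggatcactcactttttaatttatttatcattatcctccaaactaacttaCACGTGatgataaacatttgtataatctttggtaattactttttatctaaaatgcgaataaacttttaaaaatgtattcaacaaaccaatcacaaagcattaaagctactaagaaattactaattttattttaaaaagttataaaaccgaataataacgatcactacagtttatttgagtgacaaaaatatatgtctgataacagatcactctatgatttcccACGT
SEN1: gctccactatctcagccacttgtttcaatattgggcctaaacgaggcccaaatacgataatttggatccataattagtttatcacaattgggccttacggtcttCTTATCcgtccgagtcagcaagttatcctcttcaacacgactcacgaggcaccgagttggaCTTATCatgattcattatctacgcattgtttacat
DRM2: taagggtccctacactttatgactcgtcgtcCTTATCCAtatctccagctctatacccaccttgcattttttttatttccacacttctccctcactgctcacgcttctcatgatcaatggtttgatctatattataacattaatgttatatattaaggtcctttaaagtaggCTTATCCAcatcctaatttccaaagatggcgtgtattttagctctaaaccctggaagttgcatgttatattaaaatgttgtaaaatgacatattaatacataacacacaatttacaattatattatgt

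The light-related element was present in the windows of 7 of the 9 genes (all but DIN2 and DIN10), while 14.5% of the 27443 nuclear protein-coding genes hold it in a window of the same length. The match of DIN4 lies 292 bases before the start, and 174 bases of its window overlap the neighbouring gene AT3G13460. In DRM2 it overlaps the sugar-related element at both places, 269 and 128 bases before the start, so these matches share bases. The sugar-related element was found in DIN6 and DRM2 (2 of 9, against 16.2% of all windows), and the G-box in DIN6 and DIN11 (2 of 9, against 7.09%). The bZIP core was found in 5 of 9 windows (49.0% of all) and the proline-responsive element in 0 of 9 (14.8% of all). These are matches of letters only, with no measurement of binding.

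In dko rosettes 3 of the 8 members that could be tested rose, DIN6, DIN11 and DIN4, and 0 fell past the q threshold, per the authors' deposited table. In dko seedlings 0 rose and 5 of 8 fell, namely DIN6, SEN1, DIN11, DRM2 and DIN10, per the authors' deposited table. Over all loci, 7.81% of the 18338 tested rose and 8.94% fell in rosettes (16.8% in either direction), and 8.4% of the 19747 tested rose and 8.14% fell in seedlings (16.5% in either direction). Since the list was chosen with these calls known, nothing is read from the difference to those shares. By value alone, 7 of 9 members, counting the untested DIN2, had a log2 ratio above 0 in rosettes and 9 of 9 had one below 0 in seedlings. Over all tested loci these shares were 51.2% and 48.5%, and nothing is read from this difference either. The median log2 ratio of the 8 tested members was 0.49 in rosettes and -0.87 in seedlings, where the median over all tested loci was 0.01 in both tissues. DIN2 was not tested in either of the authors' tables.

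**Figure D1:**
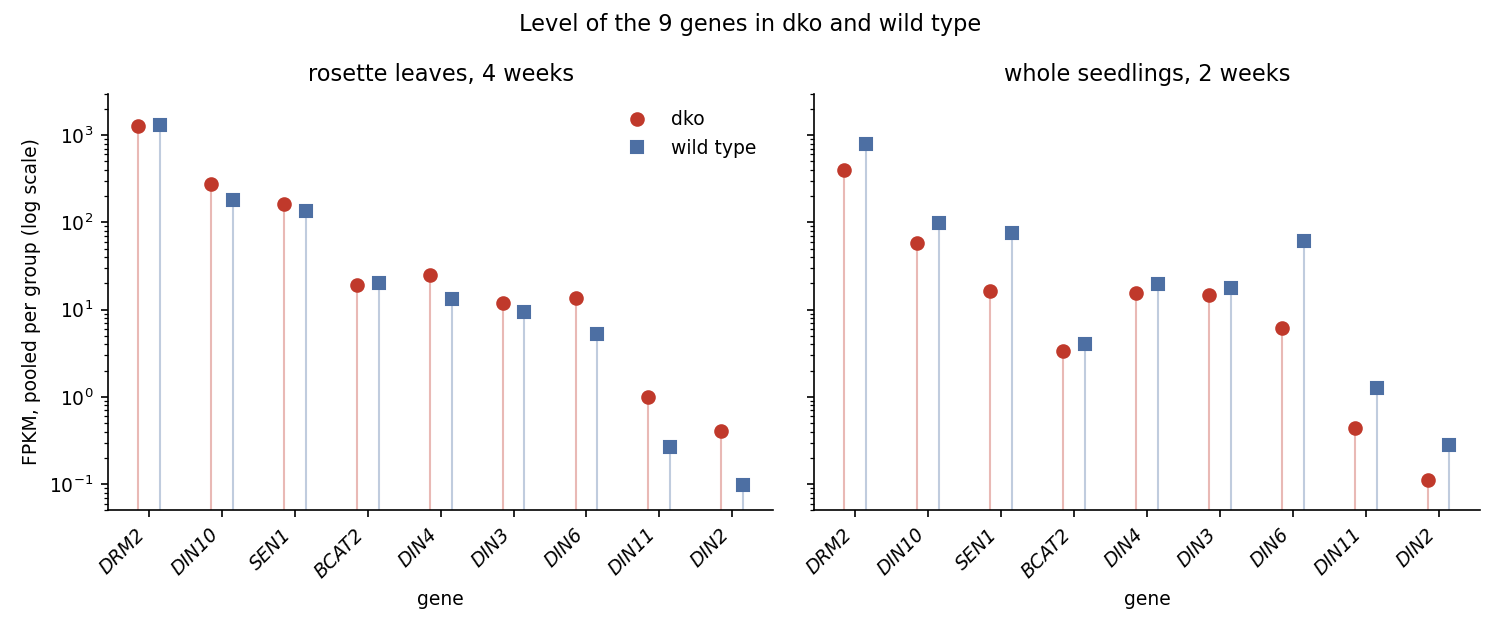
Pooled FPKM (log scale) of each of the 9 genes in dko (circles) and wild type (squares), in rosette leaves and in seedlings; there is 1 value per group and no error bar. DRM2 was the most abundant and DIN2 the least abundant in all 4 groups. Wild type lies above dko for all 9 genes in seedlings, as it does for 48.5% of all tested loci.

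The members spanned a wide range of levels. DRM2, a gene of the dormancy and auxin-associated family, was the most abundant per length in each of the 4 groups, with 1259 FPKM in dko rosettes, 1291 FPKM in wild-type rosettes, 397 FPKM in dko seedlings and 785 FPKM in wild-type seedlings. In dko rosettes 103 of the 34133 loci had a higher FPKM. DIN10 and SEN1 came next in rosettes of both genotypes and in seedlings of both genotypes, and DIN11 and DIN2 came last. The place that moved most was that of DIN6, which was number 6 of the 9 in dko seedlings and number 4 in wild-type seedlings. As the tables were normalised separately, levels are compared within a tissue only. In such bulk samples a smaller number of cells of one type and less RNA per cell cannot be told apart.

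DIN6 (ASN1) encodes a glutamine-dependent asparagine synthetase, which stores nitrogen in an amide of low carbon cost when sugar is short. It stood at 13.6 FPKM in dko rosettes and 5.30 FPKM in wild-type rosettes (2.57-fold higher, log2 ratio 1.36 and q = 0.000899 in the authors' deposited table). In seedlings it stood at 6.15 FPKM in the dko and 62.0 FPKM in wild type (log2 ratio -3.33 and q = 0.000768 in the authors' deposited table). The dko level was thus 9.93% of wild type in seedlings, and its ratio ranked 36 from the lowest of the 19747 tested loci. The dko thus had the lower value in seedlings and the higher value in rosettes. ASN2, the second gene of the family, stood at 18.3 FPKM in dko rosettes and 9.75 FPKM in wild-type rosettes, a rise with a log2 ratio of 0.91 and q = 0.000899 per the authors' deposited table. In seedlings ASN2 did not pass the threshold, at 74.8 FPKM in the dko and 91.9 FPKM in wild type (q = 0.11, authors' deposited table). ASN3 passed in neither tissue (log2 ratio -0.12 in rosettes and 0.31 in seedlings, authors' deposited tables).

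SEN1, a senescence-associated gene for a rhodanese-like protein, differed in seedlings. It fell to 16.3 FPKM in dko seedlings, against 74.8 FPKM in wild-type seedlings, in the authors' deposited table (4.58-fold lower, log2 ratio -2.20, q = 0.000768). In rosettes its level was 161 FPKM in the dko and 137 FPKM in wild type, a log2 ratio of 0.24 that did not pass (q = 0.573, authors' deposited table). DRM2, whose levels are given above, had a log2 ratio of -0.98 in seedlings (q = 0.000768) and of -0.04 in rosettes (q = 0.958) in the authors' deposited tables. Its fall left the dko at 50.5% of wild type in seedlings. The related DRM1 fell as well in seedlings, to 209.5 FPKM in the dko, against 302 FPKM in wild type (log2 ratio -0.53, q = 0.013, authors' deposited table).

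DIN10 and DIN2 belong to enzyme families that act on sugar conjugates. DIN10, of the raffinose synthase and alkaline alpha-galactosidase family, stood at 58.6 FPKM in dko seedlings and 99.3 FPKM in wild-type seedlings (log2 ratio -0.76 and q = 0.000768 in the authors' deposited table). In rosettes it stood at 279 FPKM in the dko and 179 FPKM in wild type, a log2 ratio of 0.64 short of the threshold (q = 0.114, authors' deposited table). Its relative SIP2 fell in seedlings too, with a log2 ratio of -0.40 (q = 0.0189), and had 0.68 in rosettes (q = 0.0932) in the authors' deposited tables. DIN2 (BGLU30), a beta-glucosidase, was near the bottom of the scale. It had 0.411 FPKM in dko rosettes and 0.098 FPKM in wild-type rosettes, and 0.111 FPKM in dko seedlings and 0.283 FPKM in wild-type seedlings. These 4 values run in the same directions as those of DIN6, but the authors' tables hold no test for them. BGLU16, a beta-glucosidase gene beside DIN2, went the other way in rosettes, with 15.1 FPKM in the dko and 35.3 FPKM in wild type (log2 ratio -1.23, q = 0.000899, authors' deposited table).

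BCAT2, DIN4 and DIN3 encode enzymes of leucine, isoleucine and valine metabolism: an aminotransferase annotated to the chloroplast, and the E1 beta and E2 subunits of the branched-chain keto acid dehydrogenase. DIN4 rose to 25.1 FPKM in dko rosettes, against 13.4 FPKM in wild-type rosettes (1.87-fold higher, log2 ratio 0.91, q = 0.011, authors' deposited table). In seedlings DIN4 stood at 15.7 FPKM in the dko and 19.5 FPKM in wild type (log2 ratio -0.31, q = 0.207, authors' deposited table). DIN3 did not pass in either tissue, at 11.9 FPKM in dko rosettes, 9.35 FPKM in wild-type rosettes, 14.9 FPKM in dko seedlings and 17.7 FPKM in wild-type seedlings (q = 0.31 and 0.22, authors' deposited tables). BCAT2 did not pass either, at 19.0 FPKM in dko rosettes, 20.2 FPKM in wild-type rosettes, 3.35 FPKM in dko seedlings and 4.03 FPKM in wild-type seedlings (q = 0.959 and 0.761, authors' deposited tables). DIN4 was the one of these 3 that passed, in rosettes, and no difference between the 3 genes or between tissues was tested. The spans of DIN4 and BCAT2 in the tables run on over the genes beside them, TBP1 and AT1G10090, which share 27 and 161 annotated bases with them on the other strand. Neither neighbour passed in either tissue (smallest q = 0.123, authors' deposited tables), and the strand setting of the authors' counting is not stated in the sources at hand. DIN10 shares 82 bases with AT5G20260, which was not tested.

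DIN11 encodes a dioxygenase that uses 2-oxoglutarate, and was expressed at a low level. It stood at 0.992 FPKM in dko rosettes and 0.265 FPKM in wild-type rosettes (3.74-fold higher, log2 ratio 1.90, q = 0.032, authors' deposited table). In seedlings it stood at 0.436 FPKM in the dko and 1.25 FPKM in wild type (log2 ratio -1.52, q = 0.0151, authors' deposited table). The direction was thus opposite in the 2 tissues, as for DIN6, and neither call holds at a q threshold of 0.01. With a pseudocount of 1 FPKM added to both groups the log2 ratio of DIN11 was 0.66 in rosettes and -0.65 in seedlings, so its size depends on how such low levels are treated. DIN11 lies on chromosome 3 at 18393747 to 18396816 (TAIR10, plus strand), 21.6 kb beyond the end of TRIC1, with 6 loci between them. Its 1 RefSeq transcript has 12 exons.

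**Figure D2:**
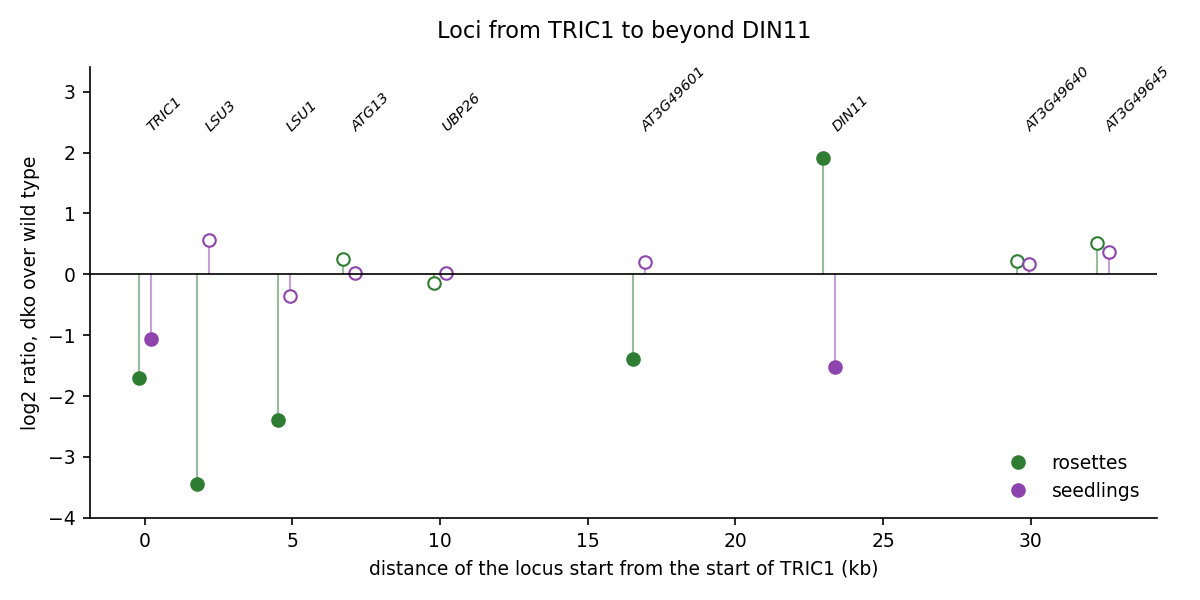
Log2 ratio of dko over wild type (rosettes in green, seedlings in purple) of the tested loci from TRIC1 to the third locus beyond DIN11, against the distance of their start from that of TRIC1; filled points passed q 0.05. DIN11, at 23.2 kb, is the single locus of the stretch with a rise past the threshold in rosettes and a fall past it in seedlings.

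The dko carries a mutation at TRIC1 itself, so the loci around it were set side by side. Among the loci between them LSU3, LSU1 and AT3G49601 fell in rosettes (log2 ratios -3.45, -2.40 and -1.39, largest q = 0.0143) and did not pass in seedlings, per the authors' deposited tables. Within 3 places of DIN11 on either side AT3G49601 alone passed, and only in rosettes: UBP26, AT3G49640 and AT3G49645 had q-values of 0.199 or more in the authors' deposited tables, and AT3G49610 and AT3G49630 had no test. Which of these values relate to the mutated site was not tested. DIN6 lies on the same chromosome at 17437884 to 17441243 (TAIR10, minus strand). The first of its 4 RefSeq transcripts has 5 exons. DIN2, DIN3 and DIN4 lie on chromosome 3 too, with spans that begin at 22216672, 2157974 and 4379793. SEN1 is on chromosome 4, DIN10 on 5, BCAT2 on 1 and DRM2 on 2.

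**Figure D3:**
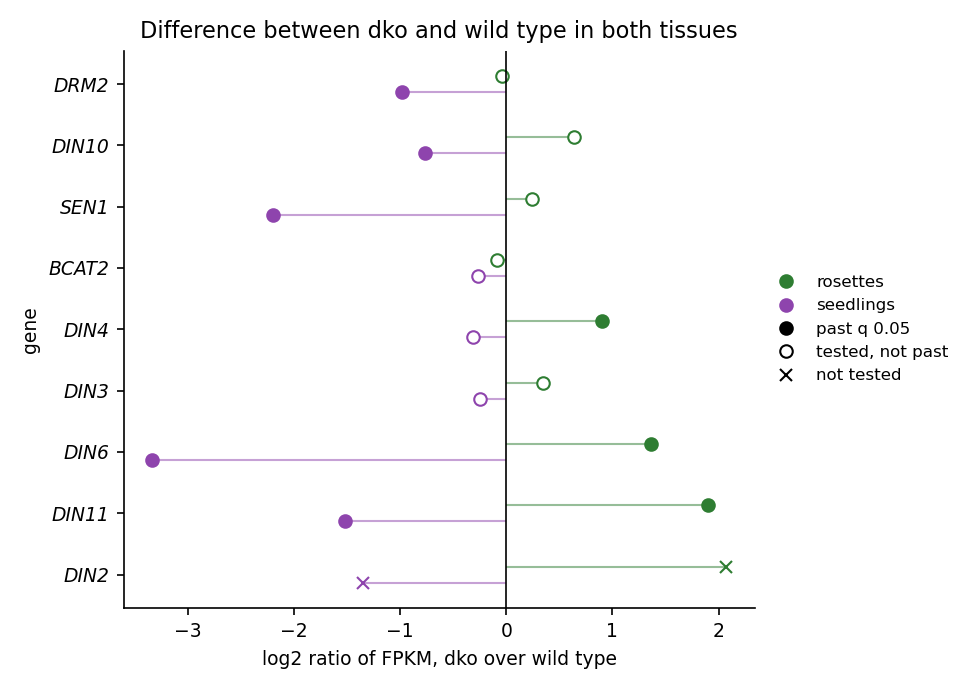
Log2 ratio of dko over wild type of each of the 9 genes in rosettes (green) and seedlings (purple); filled points passed q 0.05, open points were tested and did not pass, and crosses had no test. All 9 seedling values lie below 0 (48.5% of all tested loci), and 7 of the 9 rosette values lie above 0 (51.2% of all tested loci).

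The other genes of the response were counted in 12 lists of 109 loci, chosen with earlier results of these data known, of which 106 were in the tables. The list closest to the members held 13 other sugar-repressed or dark-induced genes. In rosettes 3 of 13 rose and 0 fell, and all 13 had a ratio above 0, with a median log2 ratio of 0.30. In seedlings 10 of 13 fell and 0 rose, with a median of -0.57. Over all tested loci 7.81% rose in rosettes and 8.14% fell in seedlings. By value alone, 51.2% of all tested loci had a ratio above 0 in rosettes and 48.5% had one below 0 in seedlings.

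SEN5, often used as a marker of SnRK1 activity, stood at 997 FPKM in dko rosettes and 478 FPKM in wild-type rosettes (log2 ratio 1.06, q = 0.00348, authors' deposited table). In seedlings SEN5 stood at 425 FPKM in the dko and 827 FPKM in wild type (log2 ratio -0.96, q = 0.000768, authors' deposited table). RZPF34, a RING-type ubiquitin ligase, rose in rosettes to 139 FPKM in the dko, against 60.3 FPKM in wild type, and fell in seedlings to 88.4 FPKM in the dko, against 131 FPKM in wild type (log2 ratios 1.20 and -0.57, authors' deposited tables). GDPD2, a phosphodiesterase of membrane lipid turnover, rose in rosettes and fell in seedlings as well, with log2 ratios of 0.98 and -0.63 (q = 0.0106 and 0.0177, authors' deposited tables). The largest fall of this list in seedlings was that of BGAL4, a beta-galactosidase, to 4.38 FPKM in the dko, against 13.7 FPKM in wild type (log2 ratio -1.65, q = 0.000768, authors' deposited table). BXL1, a beta-xylosidase, and J8, a small DnaJ protein, followed with log2 ratios of -1.14 and -0.91 (q = 0.000768 for both, authors' deposited table). These 3 genes, BGAL4, BXL1 and J8, stayed short of the threshold in rosettes (log2 ratio 0.45, 0.32 and 0.15, authors' deposited table).

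**Figure D4:**
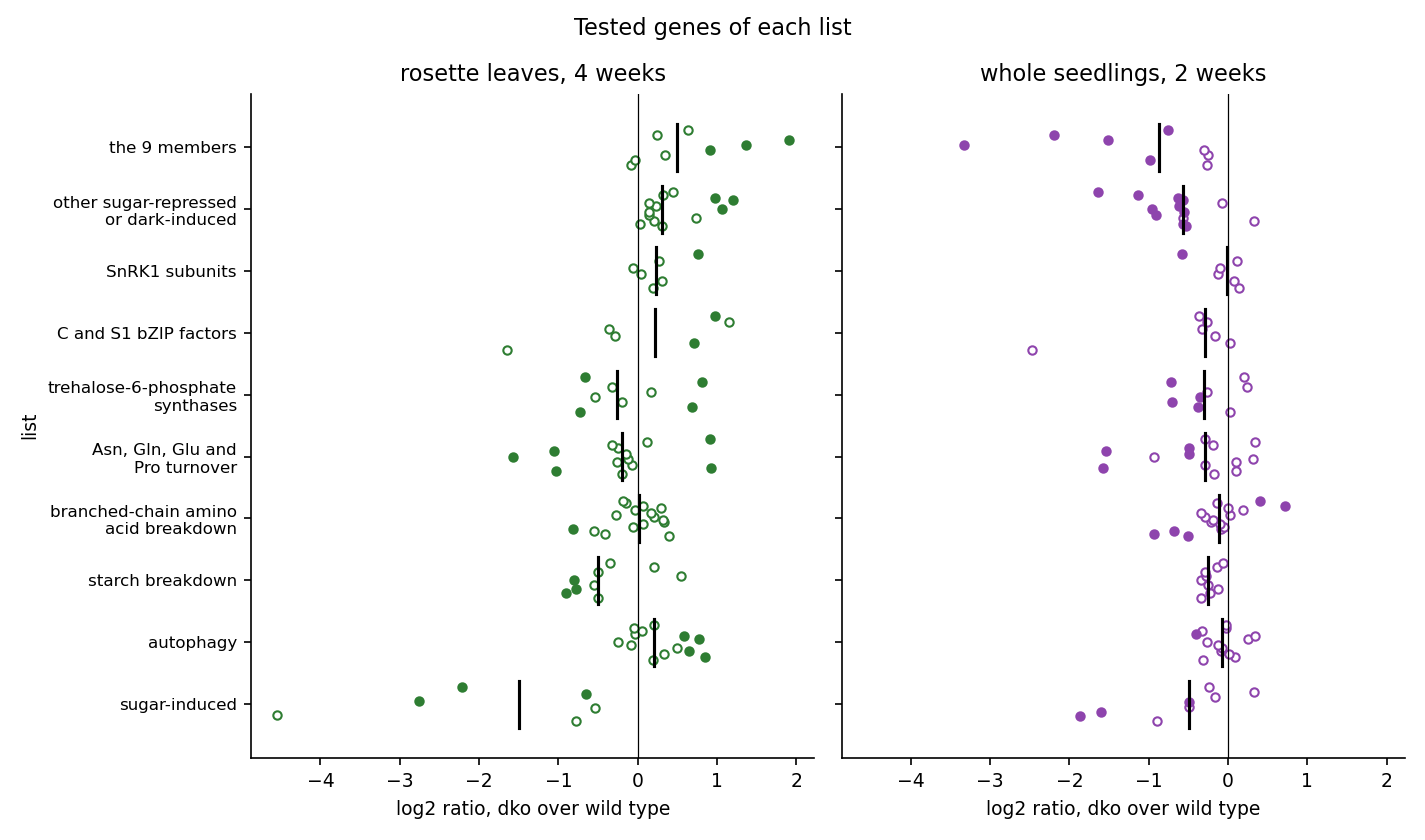
Log2 ratio of dko over wild type of each tested gene of the members and of 9 lists, in rosettes and in seedlings; filled points passed q 0.05, and the black bar is the list's median. The other sugar-repressed genes lie above 0 in rosettes (median 0.30) and, but for 1, below 0 in seedlings (median -0.57), and sugar-induced genes have medians below 0 in both tissues.

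Upstream of these genes, 5 of the 6 tested SnRK1 subunits did not pass in either tissue, among them KIN10 and KIN11, the catalytic subunits. The regulatory subunit AKINBETA1, itself sugar-repressed, rose to 42.8 FPKM in dko rosettes, against 25.3 FPKM in wild-type rosettes, and fell to 15.9 FPKM in dko seedlings, against 23.8 FPKM in wild-type seedlings (log2 ratios 0.76 and -0.58, q = 0.006005 and 0.00141, authors' deposited tables). Of 6 tested C and S1 bZIP factors 2 rose in rosettes, BZIP63 (log2 ratio 0.97, q = 0.000899) and BZIP2 (log2 ratio 0.71, q = 0.0139), and 0 of 6 passed in seedlings, per the authors' deposited tables. BZIP1, BZIP11 and BZIP53 were not analysed here. The trehalose-6-phosphate synthase family split in rosettes, where TPS11 and TPS9 rose (log2 ratios 0.81 and 0.69) and TPS7 and TPS5 fell (-0.73 and -0.66), in the authors' deposited table. In seedlings TPS11, TPS10, TPS9 and TPS6 fell, with log2 ratios of -0.72, -0.70, -0.38 and -0.35, and 0 of 8 rose (authors' deposited table).

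Among genes of amino acid turnover outside the members, PRODH1, the first enzyme of proline breakdown, rose to 64.9 FPKM in dko rosettes, against 34.3 FPKM in wild-type rosettes, and fell to 5.28 FPKM in dko seedlings, against 15.8 FPKM in wild-type seedlings (log2 ratios 0.92 and -1.58, authors' deposited tables). In the list of asparagine, glutamine, glutamate and proline turnover, 2 of 13 tested rose and 3 fell in rosettes, and 0 rose and 4 fell in seedlings. Over all tested loci 7.81% rose and 8.94% fell in rosettes, and 8.4% rose and 8.14% fell in seedlings, and these shares are the background for each list count given here. GLN2, the plastid glutamine synthetase, fell in both tissues (log2 ratios -1.06 and -1.54), and GLN1;4 and GLN1;3 fell in rosettes (-1.58 and -1.03), per the authors' deposited tables. GDH1 and GLN1;1 fell in seedlings, both with a log2 ratio of -0.49 (authors' deposited table). Of the 16 other genes of branched-chain amino acid breakdown, LPD1 alone passed in rosettes, where it fell (log2 ratio -0.81, q = 0.00348, authors' deposited table). In seedlings BCAT1, BCE1A1 and MCCA fell (log2 ratios -0.94, -0.68 and -0.50) and BCE1A2 and CHY1 rose (0.72 and 0.40), per the authors' deposited table. Of the other aminotransferases of the family, 0 of 3 tested passed in rosettes and 0 of 4 in seedlings.

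Of 13 autophagy genes, which recycle cell contents during starvation, ATG8D, ATG1A, ATG8E and ATG8B rose in rosettes (log2 ratios 0.85, 0.77, 0.64 and 0.59), and ATG8F fell in seedlings (-0.40), in the authors' deposited tables. Of 9 genes of starch breakdown DPE2, ISA3 and BAM1 fell in rosettes (log2 ratios -0.90, -0.80 and -0.78), and 0 of 9 passed in seedlings, per the authors' deposited tables. Genes that sugar induces fell where they passed, in the authors' deposited tables. In rosettes these were 3 of 6 tested, CHS, DFR and SUS1 (log2 ratios -2.76, -2.21 and -0.65). In seedlings they were 3 of 8, GPT2, BAM5 and APL3 (-1.86, -1.60 and -0.49). No gene of the list passed in both tissues. CHS, DFR and SUS1 had -0.17, -0.24 and 0.33 in seedlings. APL3 had -0.53 in rosettes, where GPT2 and BAM5 were not tested. CHS and DFR were low in rosettes, at 0.277 and 0.311 FPKM in the dko and 1.88 and 1.44 FPKM in wild type. In rosettes 3 of the 13 other sugar-repressed or dark-induced genes rose and 0 fell, while 0 of 6 sugar-induced genes rose and 3 fell. In seedlings 10 of 13 and 3 of 8 fell, and 0 rose in either list. The part of sugar in these differences was not tested.

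A rise in dko rosettes together with a fall in dko seedlings was an uncommon pattern in these tables. Of the 17890 loci tested in both tissues, 1304 passed in both, and 67 of them (0.375% of 17890) rose in rosettes and fell in seedlings. The reverse pattern was found for 54 (0.302%), while 725 rose in both (4.05%) and 458 fell in both (2.56%). DIN6 and DIN11 are 2 of the 67. Of the list genes outside the members, 8 passed in both tissues. AKINBETA1, TPS9, TPS11, PRODH1, SEN5, RZPF34 and GDPD2 had this pattern (7 of 8), 0 had the reverse and GLN2 fell in both. Among all 1304 loci that passed in both tissues, the 67 make up 5.14%. The lists were chosen with earlier results of these data known, so nothing is read from the difference to that share. The comparisons of the 2 tissues share no samples. The rosette plants were also older and had been moved to soil, so tissue, age and substrate cannot be told apart.

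**Figure D5:**
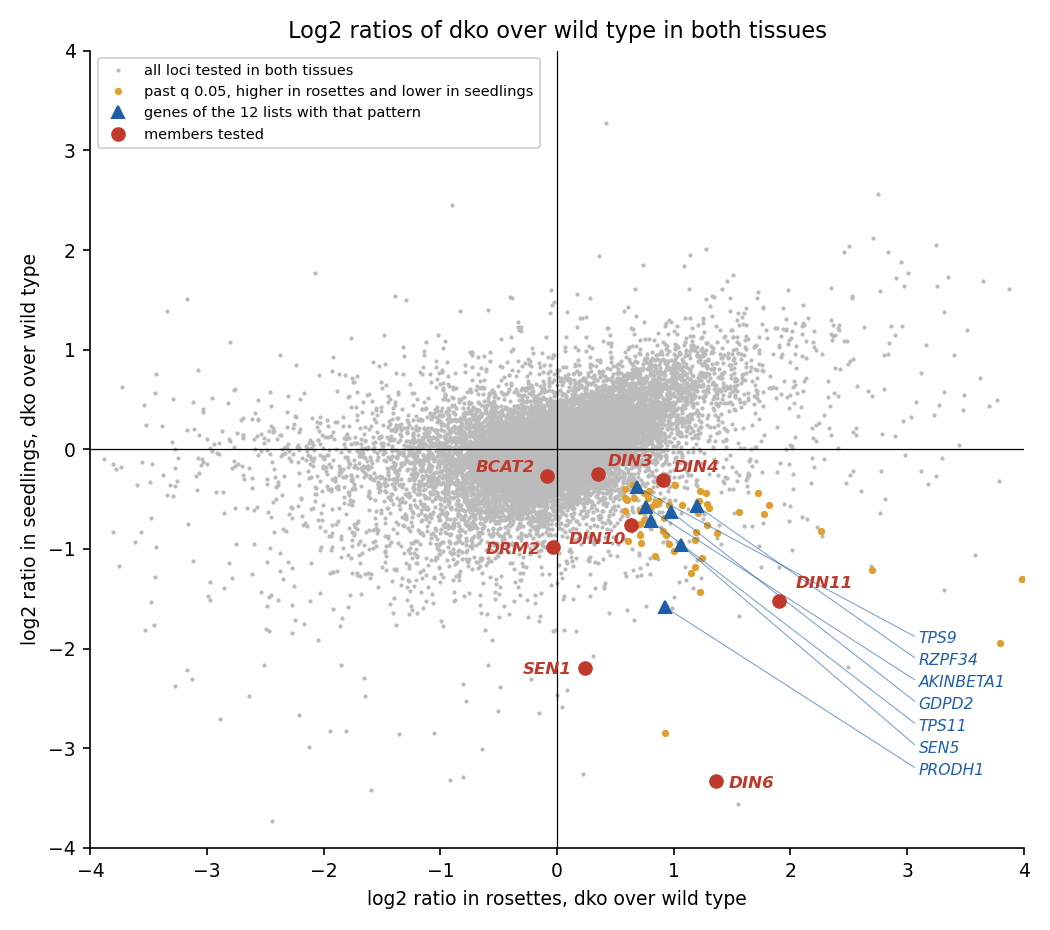
Log2 ratio of dko over wild type in rosettes (x axis) against seedlings (y axis) for loci tested in both tissues (grey); gold points are the 67 loci past q 0.05 that rose in rosettes and fell in seedlings, triangles the 7 list genes among them and large circles the 8 tested members. Of 17862 loci with a finite ratio in both, 77 lie outside the axes.

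Among 1281 candidate loci that passed in both tissues at 1 FPKM or more, the pair of log2 ratios closest to that of DIN6 was that of BHLH101, a transcription factor of the iron deficiency response, at a distance of 0.65 on the log2 scale. PRODH1 (1.81) and AT4G28140 (1.90) came next. BHLH101 stood at 7.77 FPKM in dko rosettes and 4.09 FPKM in wild-type rosettes, and at 0.613 FPKM in dko seedlings and 4.42 FPKM in wild-type seedlings. For DIN11 the 3 closest were AT4G28140, EXPA1, an expansin that loosens cell walls, and AT3G46370, at distances of 0.68, 0.78 and 0.79. This likeness rests on 2 ratios per gene, one for each tissue.

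Several measures that could go with these genes were set beside them. The labels do not give the hour of harvest. Of 9 clock genes, added after the members' values were seen, 8 were tested in each tissue: LHY rose (log2 ratio 1.63, q = 0.00893) and ELF4 fell (log2 ratio -1.32, q = 0.00164) in rosettes, and PRR9 fell in seedlings (log2 ratio -1.36, q = 0.00504), in the authors' deposited tables. LHY and PRR9 were low there, LHY at 0.747 FPKM in dko rosettes and 0.242 FPKM in wild-type rosettes. PRR9 stood at 0.559 FPKM in dko seedlings and 1.44 FPKM in wild-type seedlings. CCA1, PRR7, PRR5, TOC1, GI and LUX did not pass in either tissue. The part of the clock and of harvest time in the members' differences was not tested. Of 3 leaf markers, 2 of which belong to gene families with near-identical copies (RBCS1A and LHCB1.3), RCA fell in rosettes and RCA and LHCB1.3 fell in seedlings, and the list summed to 7897 FPKM in dko rosettes, 15551 FPKM in wild-type rosettes, 13696 FPKM in dko seedlings and 29187 FPKM in wild-type seedlings. Of 8 root markers, 3 were listed at 0 in rosettes of both genotypes (IRT1, EXPA7 and COBL9) and 0 in seedlings. The summed level of the root markers was 9.40 FPKM in dko rosettes and 9.73 FPKM in wild-type rosettes. Most of that was SCR (5.35 and 3.93 FPKM) and SHR (2.00 and 2.70 FPKM). In seedlings the sum was 193 FPKM in the dko and 228 FPKM in wild type, most of it PYK10 (178 and 213 FPKM). None of the root markers passed in either tissue. The 3 flower markers summed to at most 1.59 FPKM in any group. None of the leaf markers was listed at 0 in any of the 4 groups. The part of these cell types in the members' differences was not tested.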

How the data were processed

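Total RNA was sequenced as strand-specific libraries after removal of rRNA, as the labels' protocols state. The submitters' processing notes name Cuffdiff, Cufflinks, TopHat2 and Bowtie2, all with version 2.2.0, and the TAIR10 genome. The labels do not say whether the 3 replicates were separate plants, so the q-values cover only variation among these samples, which may be technical. FPKM, log2 ratio (dko over wild type), test score, p-value and q-value were deposited by the authors, 1 value per locus, group or comparison, per the file headers. The columns left without a meaning numbered 0. Log2 ratios recomputed from FPKM differed by at most 1.39e-05, and recomputed Benjamini-Hochberg q-values by at most 5.24e-07. The tables mark 18338 loci in rosettes and 19747 in seedlings as tested.

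Pooled values allow no test per replicate, so the authors' q-value (0.05) was used. The test score gave no standard error: loci with a deposited p-value near 0.05 had a median normal p-value of 0.252 in rosettes. The p-values stop at 5e-05. Members and lists were chosen with earlier results of these data known. Named genes are the members, the targeted genes, the 3 nearest by ratio pair and the 3 loci on each side of DIN11. Up to 4 of each list per tissue are named as well, with the largest ratio past q 0.05 at 1 FPKM or more. ASN2, ASN3, DRM1, CHY1, KIN10, KIN11, LSU3, LSU1 and the clock and marker genes were named besides. So were TBP1, AT1G10090, AT5G20260, AT3G13460 and AT3G47341, which overlap a member or its window. Symbols and sequences are from RefSeq TAIR10.1, and starts in the tables had 1 added. Alternatives were other q thresholds, a 2-fold minimum, 1 FPKM or more, nuclear loci only, recentring and pseudocounts of 1 and 0.1. Python 3.11.15, pandas 2.3.3 and matplotlib 3.10.9 were used, and the adjustment and the motif search were tested on simulated data.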

Additional observations from a re-analysis of the deposited data

Results flagged for a closer look

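DIN6 and DIN11 stood out because both passed q 0.05 in each tissue with opposite directions, higher in dko rosettes and lower in dko seedlings. The log2 ratio in rosettes exceeded that in seedlings by 4.69 for DIN6 and by 3.42 for DIN11. This difference between tissues was not tested, as the tables hold 1 pooled value per group, and the genes were listed with these directions known.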

How the results depend on the processing

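At a q threshold of 0.01 the count of members that rose in rosettes was 1 (DIN6) instead of 3, and DIN11 was no longer past the threshold in seedlings. With a 2-fold minimum the members that fell in seedlings numbered 3 instead of 5, without DIN10 and DRM2, and DIN4 no longer counted in rosettes. At 1 FPKM or more DIN11 drops out of the rosette test, which leaves 2. No member's ratio changed sign with a pseudocount of 1 or 0.1 or after recentring, but the low genes shrank. With a pseudocount of 1 DIN11 had log2 ratios of 0.66 in rosettes and -0.65 in seedlings, and DIN2 had 0.36 and -0.21. Over all settings 6 values of single members lost the call and 127 were unchanged, but the 127 do not measure stability. Pseudocounts and recentring gave a new ratio without a new q-value, so they assess direction only. The other settings left the ratio as it was, so they assess the call only. Members short of the main threshold had no call to lose at a stricter one. DIN11 in rosettes has no value at 1 FPKM or more and is not among the 6. Over the 12 lists, the genes that rose in rosettes numbered 14, and 8 at q 0.01 and 2 with a 2-fold minimum; those that fell numbered 13, and 8 and 6. In seedlings 27 fell, and 6 with a 2-fold minimum, while 2 rose, against 1 at q 0.01, 4 at q 0.1 and 0 with a 2-fold minimum. Stricter thresholds lower such counts by construction. Depth is unknown, and the FPKM of DIN11 and DIN2 are low, so their ratios are the least certain among the members. No paired analysis was possible because the tables hold 1 pooled value per group, and for the same reason no replicate could be left out.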
